A study of Mus musculus with 6 samples.

Results

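The axon guidance ligands and receptors were examined in cultured cardiac fibroblasts (CFs): semaphorins with their plexin and neuropilin receptors, Slits with the Robo receptors, netrins with the Unc5 receptors, and ephrins with the Eph receptors. Members were taken by gene symbol, as every gene of the table whose symbol belongs to these families, which gave 63 of 19446 genes, 33 of them ligands and 30 receptors. The rule itself uses no measured value, though the families were picked with earlier results of these data known. RNA-seq had been performed on poly(A) RNA in 6 libraries, 3 of wild-type (WT) CFs and 3 of CharmeKO CFs, whose locus of the long non-coding RNA (lncRNA) *Charme* carries an inserted PolyA signal. Both groups came from C57BL/6J mice (5 weeks of age in the labels). The study's methods describe cultures that grew out of explanted atrial tissue, with the tissue of several littermates combined, and that were kept untreated at early passage in a medium rich in serum on fibronectin. They describe no sort of these cultures and give separate primary isolations as the replicates of the study's experiments in general, while the labels do not tie a library to an isolation. The p-values measure the spread between these libraries.

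Axon guidance molecules were named for steering growing nerve fibres, but the same ligands and receptors act wherever cells must recognise a neighbour or a direction, in blood vessels, heart valves, the cardiac septum and connective tissue. A ligand, either secreted into the matrix or displayed on a neighbouring cell, binds its receptor and changes the actin cytoskeleton and adhesion of the receiving cell. Semaphorins act through plexins, and the secreted class 3 members usually need a neuropilin as co-receptor. Slits act through Robo receptors, netrins through Dcc, Neo1 and the Unc5 receptors, and ephrins through Eph receptor tyrosine kinases, where the ephrin-bearing cell can receive a signal as well.

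The 6 libraries held 38330019 to 46797446 reads assigned to genes. CUFF405, taken as the *Charme* entry of the table, had 5, 15 and 11 reads in WT 1 to 3 against 0, 6 and 3 in CharmeKO 1 to 3. All 12 fibroblast markers used to check the labelled cell type were present, and summed to 25834 to 54198 CPM (reads scaled to the total of the library) in WT and 33958 to 44723 CPM in CharmeKO. Of 12 endothelial markers 9 were in the table (not *Tie1*, *Emcn* or *Cldn5*), with sums of 21.2 to 137 CPM in WT and 11.5 to 97.6 CPM in CharmeKO, and of 12 cardiomyocyte markers 5, with 5.40 to 18.5 CPM and 5.75 to 24.5 CPM. All 14 haematopoietic markers were in the table, and summed to 48.3 to 214 CPM in WT and 26.0 to 455 CPM in CharmeKO. Smooth muscle and pericyte markers summed to 1460 to 6315 CPM in WT and 874 to 3669 CPM in CharmeKO. Of these 14 markers 13 had a log2 fold change below 0 (92.9%, against 49.6% of all tested genes). The part of such cells in the results that follow was not tested, and in bulk RNA fewer cells of a type and less RNA per cell cannot be told apart.

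Levels were compared between genes as RPKM, reads scaled to the exon length in kilobases and to the total of the library. Slit3 had the highest level of the 63 genes, with a mean of 182 ± 118 RPKM (SD over the 6 libraries), followed by Plxnb2 with 108 ± 14.1 RPKM. The level of Slit3 exceeded that of 98.8% of the tested genes with a known length, and that of Plxnb2 exceeded 97.8%. Unc5b (55.6 ± 30.7 RPKM) and Plxna1 (53.2 ± 6.07 RPKM) came next, then Efnb2, Ephb4, Sema3d, Slit2, Efnb1, Sema3f and Epha2 between 30.0 and 13.6 RPKM. These 11 genes lay at 10 RPKM or more, 33 members lay between 1 and 10 RPKM, and 19 lay under 1 RPKM. These levels depend on the length used: with the longest transcript in place of all exons, 19 members were more than 1.5 times higher, and 14 lay at 10 RPKM or more, with Nrp1 (22.7 RPKM), Sema3a and Sema3c added, while Efna5 moved from rank 12 to 16. Slit2 then had 40.2 RPKM and Robo1 3.98 RPKM, and the first 5 ranks stayed as they were. Among the top 12, which end with Efna5 at 8.55 ± 3.53 RPKM, neighbours in the order mostly did not differ beyond their spread. The mean log2 difference between neighbours exceeded its SD over the 6 libraries in 3 of 11 steps, Plxnb2 over Unc5b, Plxna1 over Efnb2 and Epha2 over Efna5. The tested members had a median of 2.81 RPKM, beside 3.62 RPKM for all tested genes, and all members together took 0.388% to 0.660% of the reads of a library.

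**Figure D1:**
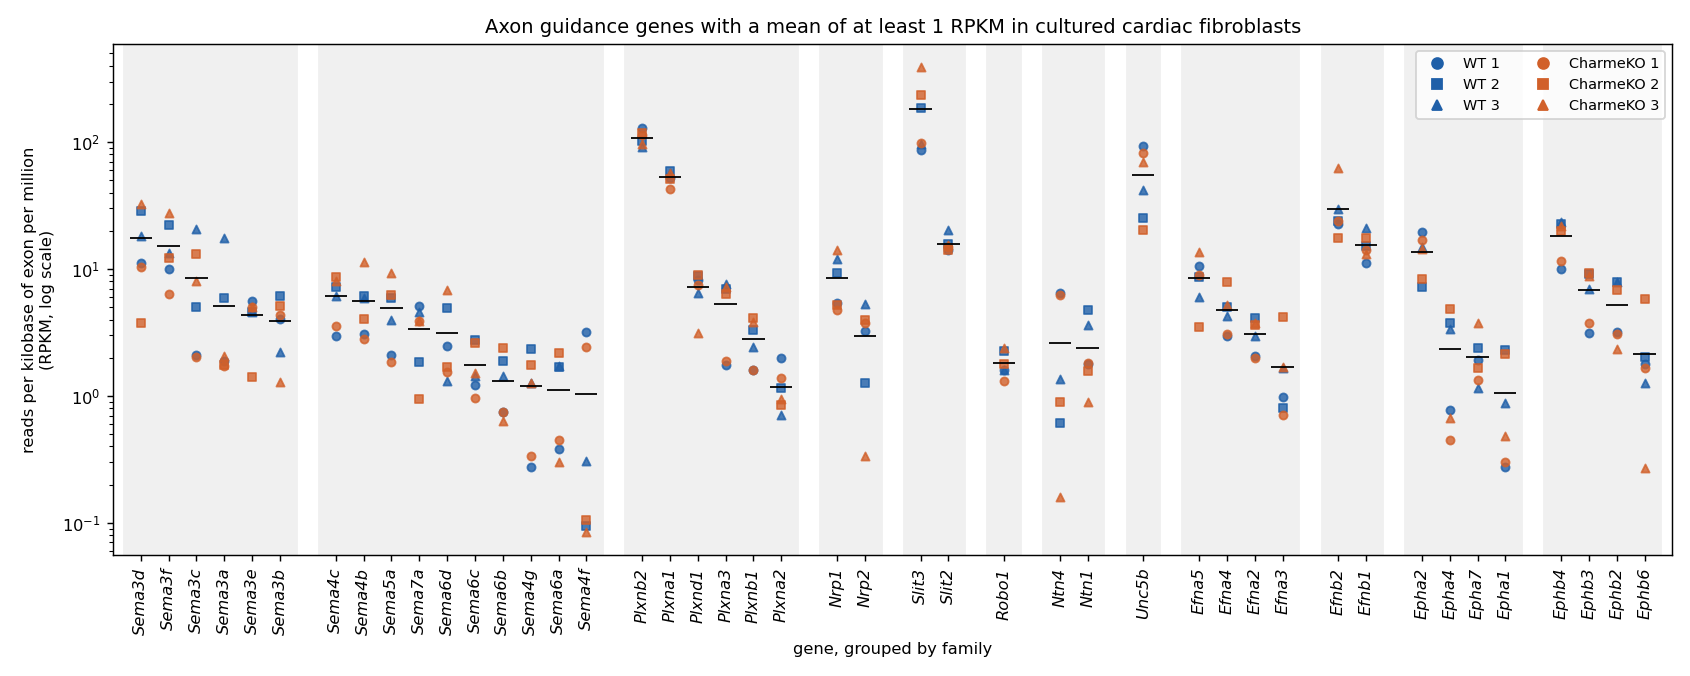
Level (RPKM, log axis) of the 44 members with a mean of at least 1 RPKM, in families; points are the 6 libraries (colour for genotype, shape for replicate number) and black bars the mean. Slit3 and Plxnb2 lie highest, at means of 182 and 108 RPKM, and points of the same shape often lie together.

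Ligands summed to 352 ± 152 RPKM (mean ± SD of 6 libraries, 217 to 627) and receptors to 301 ± 23.7 RPKM (279 to 342), so that the ligand total varied more between libraries. Much of that spread lay in 1 ligand, Slit3, which ran from 86.6 RPKM in WT 1 to 390 RPKM in CharmeKO 3. Single genes made up most of several families. Slit3 held 92.0% of the summed level of the Slits, Unc5b 97.5% of that of the Unc5 receptors, Robo1 93.5% of that of the Robos, Nrp1 74.0% of that of the neuropilins, Epha2 69.7% of that of the EphA receptors and Plxnb2 60.6% of that of the plexins. The semaphorins were spread more evenly, with Sema3d at 31.9% of the class 3 sum and Sema4c at 20.4% of the membrane-bound sum.

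Of the 63 members 59 passed the filter for testing (at least 10 reads in at least 2 libraries). Epha10, Ephb1, Sema5b and Unc5d did not, and had at most 8.79 normalised reads in any library, where normalised reads are the deposited reads divided by a size factor per library. Before the genotypes were compared, the members were followed across the libraries. The libraries numbered 1 resembled each other most. Deviations of the WT and CharmeKO library from their group means were correlated over the 59 members. The r was 0.836 for number 1, 0.459 for number 2 and 0.146 for number 3. Number 3 thus lay below the unlike-numbered WT 2 with CharmeKO 3 (0.420) and WT 3 with CharmeKO 2 (0.305). All other unlike-numbered combinations lay below 0. This is a description across genes that share their libraries. Replicate number accounted for 67.8% of the summed variance of the members on the log2 scale, genotype for 9.66%, and 22.5% was left over (67.7%, 10.6% and 21.7% over all tested genes). In 55 of the 59 members (93.2%, against 88.9% of all tested genes) the share of the number was larger than that of genotype. Replicate number has 3 levels and genotype 2, so a larger share for the number is partly built in.

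The libraries numbered 1 stood apart from the rest for many members, as they did for many of all tested genes. Both of them lay above the other 4 libraries for 12 members (20.3%, where 23.6% of all tested genes did so) and below them for 17 members (28.8%, against 21.8% of all). Sema4f was chosen after its values were seen as the widest case, with 718, 20.3 and 68.1 normalised reads in WT 1, 2 and 3 and 549, 21.6 and 18.3 in CharmeKO 1, 2 and 3. It encodes a transmembrane semaphorin of neural and glial tissue, and only the libraries numbered 1 held more than 68.1 normalised reads. The same libraries had the highest sums of mesothelial markers (484 and 508 CPM, against 69.4 to 147 CPM in the other 4) and of endothelial markers (137 and 97.6 CPM, against 11.5 to 60.9 CPM). Of 12 Schwann cell and neuron markers 10 were in the table, and they summed to 106 and 126 CPM in these libraries, 182 CPM in CharmeKO 3 and 33.2 to 76.4 CPM in the other 3. Most of that sum was the tubulin *Tubb3* (181 CPM in CharmeKO 3), whereas the glial factor *Sox10* had 49.2 and 67.3 normalised reads in the libraries numbered 1 and at most 4.39 elsewhere, with 0 in CharmeKO 2 and 3. The part of these markers in the members' values was not tested. CharmeKO 3 most often held the highest value, for 14 members (23.7%, against 17.0% of all tested genes). It also most often held the lowest, for 16 (27.1%, against 17.8%). Next came CharmeKO 1 with the lowest value of 13 members (22.0%, against 16.3%). WT 2 and CharmeKO 2 had the highest value of 11 each (18.6%, against 17.7% and 17.1%).

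**Figure D2:**
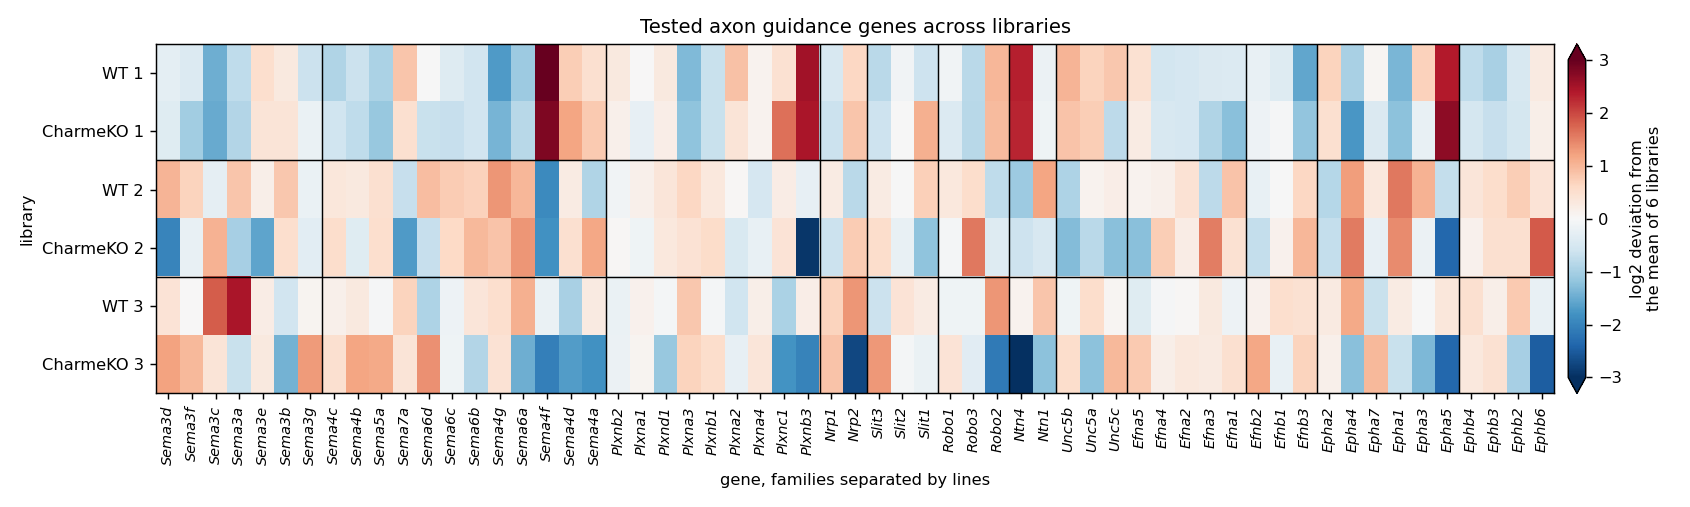
Deviation of log2(normalised reads + 1) from the mean of the 6 libraries (colour, clipped at 3 log2 units either way) for the 59 tested members (columns, in families) in each library (rows, ordered by replicate number). WT 1 and CharmeKO 1 show the same colours for most genes, while WT 3 and CharmeKO 3 often show opposite ones.

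CharmeKO was compared with WT to ask which guidance genes differ in CFs of the knockout mice. No member passed the adjusted threshold, with a lowest adjusted p of 0.9999 (limma, Benjamini-Hochberg over 15948 genes), where 0.0% of all tested genes passed. At an unadjusted limma p under 0.05 there were 2 members (3.39%, against 0.897% of all tested genes), the EphA receptor Epha3 and the ligand Ntn1, both lower in CharmeKO (0.646% of all genes in this direction). The 3 libraries of CharmeKO lay below the 3 of WT for Epha3 alone (1.69%, against 4.11% of all genes without overlap and 1.98% without overlap and lower), and for no member above. The size of the fold change reached 1 log2 unit in 6 members (10.2%, against 5.04% of all), Sema3a, Plxnb3, Epha5, Ntn1, Epha3 and Robo2, which all were lower in CharmeKO (3.69% of all in this direction). The fold change was below 0 for 39 of the 59 members (66.1%, against 49.6% of all), with a median of -0.15 (0.0022 over all genes). It ranged from -1.69 for Sema3a to 0.81 for Slit3. The members also had wider errors than most genes, with a median SE of 0.590 against 0.359.

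Other tests were run beside it. The quasi-likelihood test of edgeR put 0 members past the adjusted threshold (0.0% of all genes) and 3 at an unadjusted p under 0.05 (0.991% of all). DESeq2 put 0 members past it (0.0502% of all genes) and 3 at an unadjusted p under 0.05 (1.79% of all), with Sema3a in addition to Epha3 and Ntn1 in both tools. With the replicate number as a block, limma put 5 members at an unadjusted p under 0.05 (8.47%, against 5.37% of all), namely Epha3, Sema3a, Sema4c, Ntn1 and Sema7a, and 0 past the adjusted threshold (0.0% of all, as for edgeR with the block). DESeq2 with the block put 1 member past the threshold (1.69%, against 0.401% of all), which was Epha3. When a library was left out, the count of 2 at an unadjusted p became 0 (WT 2), 1 (WT 3) and 4 (CharmeKO 1), and the count of 6 by fold change became 10 (WT 2, CharmeKO 1 or CharmeKO 2, each alone). For these fits the shares of all tested genes are not given, so the counts describe the members alone.

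Within the same-numbered pairs, 12 members differed in the same direction in all 3 pairs (20.3%, against 30.4% of all tested genes). Of these 7 were lower in CharmeKO (11.9%, against 14.0%), namely Sema3a, Sema7a, Plxna1, Plxnd1, Plxnb3, Epha3 and Ephb2. The other 5 were higher (8.47%, against 16.4%), namely Slit3, Sema4c, Plxnb1, Efna4 and Efnb3. The exact test of 3 pairs cannot give a p below 0.25, and the exact permutation test of 3 against 3 libraries none below 0.1.

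**Figure D3:**
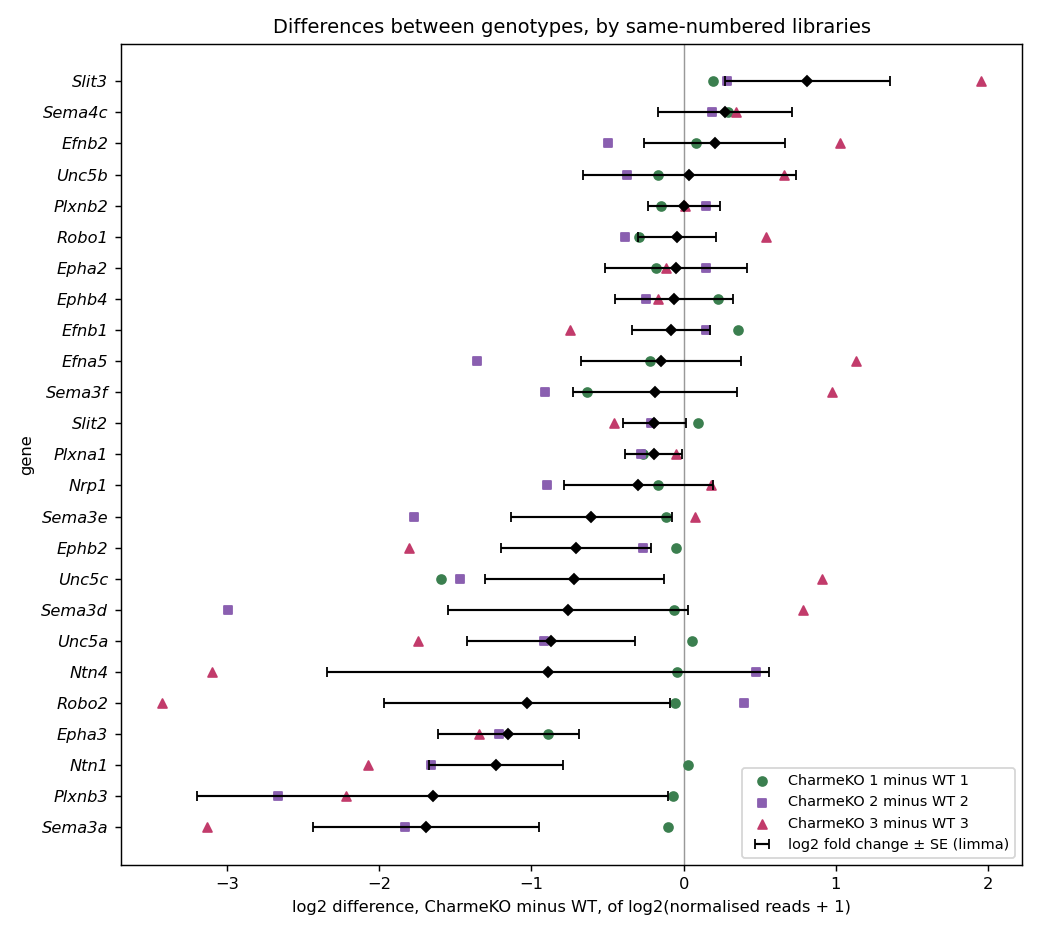
Log2 difference of CharmeKO minus WT for 25 members, from log2(normalised reads + 1): coloured points are the 3 same-numbered pairs, black diamonds the limma log2 fold change with its SE. The points of pair 1 lie near 0 for most genes, whereas those of pair 3 reach from -3.43 for Robo2 to 1.96 for Slit3.

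Among the secreted ligands the Slits were considered first. Slit proteins are large secreted glycoproteins that repel axons and migrating cells through Robo receptors. Slit3 (ENSMUSG00000056427, chromosome 11, 35121224 to 35708507, plus strand, GRCm38, protein-coding) had 22345, 45919 and 24804 normalised reads in WT 1, 2 and 3 and 25518, 55997 and 96234 in CharmeKO 1, 2 and 3. Each CharmeKO library lay above the WT library of its number, but the groups overlapped, since CharmeKO 1 lay below WT 2. The mean was 31023 ± 12959 normalised reads for WT and 59249.7 ± 35469.7 for CharmeKO (SD of 3 libraries, exact p = 0.2 by permutation). The log2 fold change of 0.81 (SE 0.541), the highest of the members, rested largely on CharmeKO 3, with pair differences of 0.19, 0.29 and 1.96. It was 0.36 without CharmeKO 3 and 1.32 without CharmeKO 1. Slit2, by contrast, varied little between libraries, with 15166, 16349 and 21835 normalised reads in WT and 16212, 14102 and 15879 in CharmeKO (log2 fold change -0.19, SE 0.207), and its groups overlapped. Slit1, the Slit best known from the nervous system, lay at 0.0383 ± 0.0227 RPKM (log2 fold change -0.22, SE 0.778).

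Slit2 and Slit3 each carry a copy of the microRNA miR-218 in an intron, on the same strand as the host gene, and both hairpins have a row of their own in the table. The mature arms are printed from RefSeq (GRCm38.p6) because the host genes hold the same microRNA. The seed, bases 2 to 8, is in capitals. The 5′ arm has the same sequence from the Slit2 hairpin (Mir218-1, chr5:48223942-48224051) and from the Slit3 hairpin (Mir218-2, chr11:35616816-35616925), whereas the 3′ arms are listed as separate sequences, and 0 exons of either host overlap the hairpin.
miR-218-5p: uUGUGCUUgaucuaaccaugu
miR-218-1-3p: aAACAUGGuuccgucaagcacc
miR-218-2-3p: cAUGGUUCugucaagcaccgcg
On Mir218-2 there were 2, 2 and 1 reads in WT 1 to 3 against 5, 6 and 15 in CharmeKO 1 to 3. On Mir218-1 there were 0, 8 and 1 reads in WT against 0, 1 and 0 in CharmeKO. The few reads on Mir218-2 were thus highest in CharmeKO 3, the library with the most Slit3. Neither row passed the filter for testing, and a poly(A) library does not measure the mature microRNA, so these reads cannot be told apart from intronic RNA of the host.

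The promoter windows of Slit3, Epha3 and Sema3a are shown next, since these are the member with the highest level, the member whose groups did not overlap and the member with the lowest fold change. Each window runs from 250 bases before to 50 after the RefSeq start (GRCm38.p6), 5′ to 3′ on the strand of the gene, with matches on either strand to the motifs searched in capitals. RefSeq's start is not always the first base of the gene: that of Epha3 is the first base of the GRCm38 gene span, that of Slit3 lies 232 bases inside it, and that of Sema3a is an internal start 271370 bases inside it. The last 30 bases of the window were found in 3 of 6 transcripts of Epha3, 1 of 4 of Slit3 and 1 of 9 of Sema3a. The motifs were the TATA box (TATAAA), the GC box bound by Sp factors (GGGCGG), the AP-1 motif (TGANTCA), the TEAD motif (GGAATG) and the E-box (CACGTG), which 13.6%, 35.7%, 7.81%, 14.7% and 7.15% of 32851 windows of this kind hold.
Slit3, chr11:35121206-35121505, plus strand: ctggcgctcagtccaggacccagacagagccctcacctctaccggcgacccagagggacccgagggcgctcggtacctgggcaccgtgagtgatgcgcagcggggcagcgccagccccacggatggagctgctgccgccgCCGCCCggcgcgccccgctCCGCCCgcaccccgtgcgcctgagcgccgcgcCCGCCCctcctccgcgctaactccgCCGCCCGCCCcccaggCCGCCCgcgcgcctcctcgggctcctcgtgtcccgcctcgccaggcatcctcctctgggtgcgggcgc
Epha3, chr16:63864126-63864425, minus strand: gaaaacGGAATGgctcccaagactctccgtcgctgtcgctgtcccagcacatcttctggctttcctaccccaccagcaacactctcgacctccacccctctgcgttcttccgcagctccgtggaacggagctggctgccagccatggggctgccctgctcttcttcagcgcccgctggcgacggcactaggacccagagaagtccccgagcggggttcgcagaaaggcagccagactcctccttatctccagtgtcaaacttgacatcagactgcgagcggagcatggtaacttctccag
Sema3a, chr5:13396534-13396833, plus strand: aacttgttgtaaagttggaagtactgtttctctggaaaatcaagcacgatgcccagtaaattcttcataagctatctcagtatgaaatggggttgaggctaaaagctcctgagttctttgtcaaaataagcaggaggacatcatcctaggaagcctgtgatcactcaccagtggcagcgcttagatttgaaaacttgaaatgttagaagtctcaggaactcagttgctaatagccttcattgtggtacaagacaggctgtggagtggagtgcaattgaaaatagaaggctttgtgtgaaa
The Slit3 window is 78.3% G and C (median of all windows 52.7%) and held 6 matches to the GC box, 2 of which overlap. The Epha3 window is 60.7% G and C and held 1 match to the TEAD motif, 244 bases before the start. The Sema3a window is 41.3% G and C and held no match to the 5 motifs. A match is a run of letters, not a bound site, and the starts used in these cultures were not measured.

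Netrins are laminin-related secreted ligands that attract cells through Dcc or Neo1 and repel them through Unc5 receptors. Ntn1 (chromosome 11, 68209364 to 68400823, minus strand, GRCm38) encodes netrin-1, the founding member. It had 479, 1220.4 and 961 normalised reads in WT 1, 2 and 3 and 487, 385 and 228 in CharmeKO 1, 2 and 3. WT 2 and WT 3 lay above all CharmeKO libraries, whereas WT 1 lay just below CharmeKO 1, so the groups overlapped. The mean was 887 ± 376 normalised reads for WT and 367 ± 131 for CharmeKO (SD of 3 libraries, exact p = 0.2 by permutation). The log2 fold change was -1.24 (SE 0.440), and 0.0282 was the lowest unadjusted limma p of the members, with pair differences of 0.03, -1.66 and -2.07. Ntn4, which is bound to basement membranes, had 1027, 94.0 and 216 normalised reads in WT and 995, 131 and 24.4 in CharmeKO. Both libraries numbered 1 lay far above the other 4, and CharmeKO 3 lay lowest (log2 fold change -0.89, SE 1.45, 0.39 without CharmeKO 3).

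Class 3 semaphorins are secreted and mostly repel axons and endothelial cells through complexes of neuropilins and plexins. Their sum was 54.6 ± 22.7 RPKM. The fold change was below 0 for 6 of 7 members (beside 49.6% of all tested genes), with 0 past the adjusted threshold (0.0% of all). Sema3a (ENSMUSG00000028883, chromosome 5, 13125414 to 13602565, plus strand, GRCm38), the prototype of the class, had 1102, 3360.1 and 10293 normalised reads in WT 1, 2 and 3. The values of CharmeKO 1, 2 and 3 were 1025, 944 and 1172. The CharmeKO libraries thus lay close together, while WT ranged widely, and WT 1 lay within the CharmeKO range. Its mean was 4918 ± 4789 normalised reads for WT and 1047 ± 115.4 for CharmeKO (SD of 3 libraries, exact p = 0.2 by permutation). Its log2 fold change was -1.69 (SE 0.742), or -0.88 without WT 3 and -2.49 without WT 1, and the pair differences were -0.10, -1.83 and -3.13. Beside these values, the smooth muscle and pericyte markers summed to 4004, 1460 and 6315 CPM in WT 1, 2 and 3 and to 3669, 874 and 1459 CPM in CharmeKO 1, 2 and 3.

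Sema3d, the class 3 member with the highest level, had 4049, 10001 and 6629 normalised reads in WT and 3868, 1256 and 11395 in CharmeKO. CharmeKO held both the lowest and the highest library (log2 fold change -0.76, SE 0.786, 0.042 without CharmeKO 2). Sema3e, the ligand of plexin D1, had 2194, 1751 and 1796 and 2021, 512 and 1890.0 normalised reads in WT and CharmeKO, of which only CharmeKO 2 stood apart (log2 fold change -0.61, SE 0.527). Sema3f, which acts mainly through Nrp2, had 2217, 4701 and 2955 and 1429, 2504 and 5806, with lower values in CharmeKO in pairs 1 and 2 and a higher value in pair 3 (log2 fold change -0.19, SE 0.537). Sema3c lay at 8.49 ± 7.29 RPKM with a fold change of -0.05. Sema3b and Sema3g, the remaining members, had fold changes of -0.35 and 0.50. Sema3a, Sema3c, Sema3d and Sema3e lie within 5.35 Mb of chromosome 5 (12383385 to 17730268), and the lowest library of the 4 differed: CharmeKO 2 for Sema3a, Sema3d and Sema3e, CharmeKO 1 for Sema3c.

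**Figure D4:**
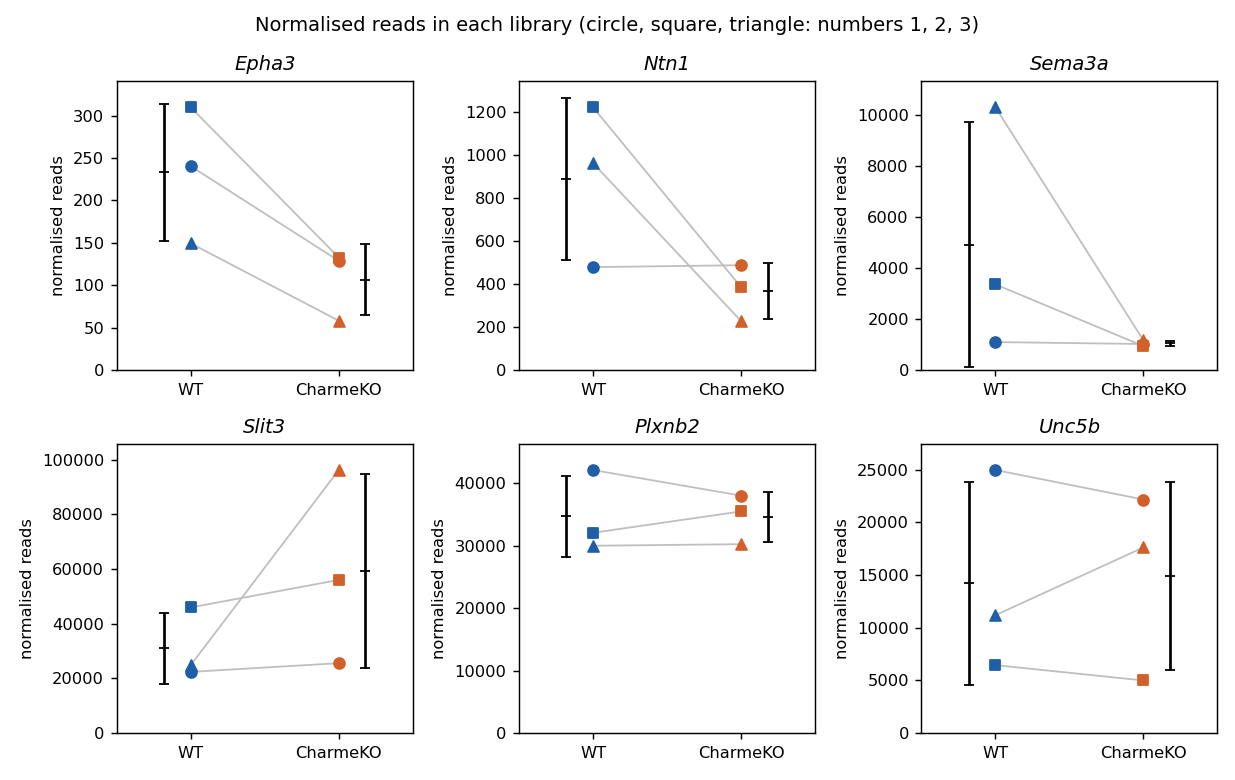
Normalised reads (linear axes from 0) of 6 members in WT and CharmeKO; lines join same-numbered libraries (circle, square and triangle for numbers 1, 2 and 3), and bars beside the points are mean ± SD, n = 3. Only Epha3 shows no overlap between the genotypes, and Unc5b follows the replicate number.

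Membrane semaphorins are anchored in the cell that makes them and can act as ligands or as receptors. Their 13 members, of which 12 were tested, summed to 29.8 ± 8.82 RPKM. Sema4c, a ligand of plexin B2, had the highest level, with 577, 1359 and 1184 normalised reads in WT and 706, 1549 and 1500.3 in CharmeKO. Each CharmeKO library was higher than the WT library of its number by a similar amount (0.29, 0.19 and 0.34), while the groups overlapped widely, because both libraries numbered 1 held less than the other 4 (log2 fold change 0.27, SE 0.441). With the replicate block its unadjusted limma p was 0.0438, and the adjusted p was 0.7997 for each member named with the block in limma. The fold changes of the 12 tested members ran from -0.71 for Sema4f to 0.33 for Sema5a, with 7 below and 5 above 0. Sema7a, which is tethered by a lipid anchor and binds plexin C1 and integrins, was lower in CharmeKO in all 3 pairs (-0.36, -1.01 and -0.29). Sema6d, by contrast, had pair differences of -0.67, -1.62 and 2.31, the widest disagreement between pairs 2 and 3 among the membrane semaphorins with at least 1 RPKM.

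Ephrins are ligands bound to the membrane of the neighbouring cell, ephrin-As by a lipid anchor and ephrin-Bs by a transmembrane segment. Efnb2, the ephrin-B2 of arteries and stroma, had 6607, 6698 and 8547 normalised reads in WT and 6989.6, 4746 and 17377 in CharmeKO. CharmeKO held both the lowest library (number 2) and the highest (number 3), so that the groups overlapped (log2 fold change 0.20, SE 0.464, -0.33 without CharmeKO 3). Efnb1 had 1647, 2148 and 3078 and 2111, 2373 and 1834 normalised reads in WT and CharmeKO, with the CharmeKO libraries inside the WT range (log2 fold change -0.08, SE 0.257). Efna5, the leading ephrin-A, had 1810.1, 1418 and 1025 and 1555, 553 and 2246, and here too CharmeKO 2 was the lowest and CharmeKO 3 the highest library (log2 fold change -0.15, SE 0.526, 0.44 without CharmeKO 2). Efna1, Efna3 and Efna4 lie within 66.3 kb of chromosome 3 and had fold changes of -0.20, 0.61 and 0.29, and Efna2 had 0.01.

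Among the receptor families the plexins, which carry a GTPase-activating domain for Ras-like proteins in their cytoplasmic part, had the most even sum, with 179 ± 11.5 RPKM. Single plexins differed in this. The highest library held 1.40 times the lowest for Plxnb2 and 1.32 times for Plxna1, but 4.35 times for Plxna3. Plxnb2 (chromosome 15, 89155549 to 89180788, minus strand, GRCm38), a receptor for class 4 semaphorins, had 42146, 32084 and 30007 normalised reads in WT 1, 2 and 3 and 38037, 35510.5 and 30257 in CharmeKO 1, 2 and 3. The libraries of the genotypes were interleaved, and its log2 fold change of 0.0035 (SE 0.238) was the closest to 0 of the tested members (it was -0.0024 in edgeR and -0.010 in DESeq2). Plxna1, a partner of the neuropilins, had 19975, 21943 and 21847 normalised reads in WT and 16629.9, 18059 and 21125 in CharmeKO. It was lower in CharmeKO in all 3 pairs by up to 0.28 log2 units, and CharmeKO 3 lay within the WT range (log2 fold change -0.20, SE 0.186). Plxnb3 was at the edge of detection, with 42.3, 5.34 and 7.69 and 40.4, 0 and 0.870 normalised reads, and its fold change of -1.65 (SE 1.55) rested on a few reads (-0.60 without CharmeKO 2). The 0 reads of CharmeKO 2 allow up to 3 reads, or 0.0753 CPM, for counting error only. The remaining plexins had fold changes from -0.41 for Plxnd1 to 0.28 for Plxnb1.

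Neuropilins bind class 3 semaphorins and also VEGF. Nrp1 had 2233, 3699.6 and 4978 normalised reads in WT and 1983, 1984 and 5628 in CharmeKO, and the groups overlapped (log2 fold change -0.30, SE 0.490). Nrp2, picked after its values were seen, had 1629.9, 609.7 and 2656 normalised reads in WT 1, 2 and 3 and 1908, 1823 and 161 in CharmeKO 1, 2 and 3. It was higher in CharmeKO in pairs 1 and 2 and lower in pair 3, where CharmeKO 3 held far less than any other library (pair differences 0.23, 1.58 and -4.04, log2 fold change -0.74, SE 1.05). CharmeKO 3 was therefore the library with the most Nrp1 and the least Nrp2.

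Unc5 receptors carry a death domain in their cytoplasmic part and mediate repulsion by netrins. Unc5b, which is also known as a guidance receptor of endothelial cells, had 24987, 6444 and 11189 normalised reads in WT 1, 2 and 3 and 22184, 4985 and 17631 in CharmeKO 1, 2 and 3. Its values followed the replicate number, to which 93.5% of its variance belonged, and the groups overlapped throughout (log2 fold change 0.04, SE 0.701). Unc5a had 209.8, 142 and 189 normalised reads in WT and 218, 74.7 and 55.7 in CharmeKO, with pair differences of 0.06, -0.92 and -1.75 (log2 fold change -0.87, SE 0.551). Unc5c had 672, 442 and 399 and 222, 159 and 748, lower in CharmeKO in pairs 1 and 2 and higher in pair 3 (log2 fold change -0.72, SE 0.590). Unc5b thus stood far above its family, and its ligand Ntn1 lay at 2.41 ± 1.46 RPKM, about the level of Ntn4 at 2.61 ± 2.90 RPKM.

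Robo receptors, the partners of the Slits, were scarce beside their ligands, with a sum of 1.95 ± 0.397 RPKM against 198 ± 117 RPKM for the Slits. Robo1 had 1129.6, 1517 and 1107 normalised reads in WT and 922, 1162 and 1613 in CharmeKO, and the highest and the lowest library both belonged to CharmeKO (log2 fold change -0.04, SE 0.258). Robo2 had 68.0, 19.2 and 84.6 and 65.4, 25.6 and 6.96 normalised reads, with CharmeKO 3 the lowest (log2 fold change -1.03, SE 0.937, -0.23 without CharmeKO 3). Robo3 was at 0.0640 ± 0.0544 RPKM.

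Eph receptors are the largest family of receptor tyrosine kinases and regulate cell sorting and the borders between tissues. Epha3 (ENSMUSG00000052504, chromosome 16, 63543534 to 63864175, minus strand, GRCm38, protein-coding) binds ephrin-As and is known from the mesenchyme of the developing heart valves and septa. It had 240.3, 309.6 and 149 normalised reads in WT 1, 2 and 3 and 129, 133 and 58.3 in CharmeKO 1, 2 and 3. All CharmeKO libraries lay below all WT libraries, and the lowest WT library (number 3) was close to the highest CharmeKO library (number 2). The mean was 233 ± 80.4 normalised reads for WT and 107 ± 41.9 for CharmeKO (SD of 3 libraries). The exact test by permutation gave p = 0.1, the smallest this design allows. Every gene without overlap gets this value, so it adds nothing to the lack of overlap. The log2 fold change was -1.15 (SE 0.463, limma adjusted p = 0.9999), with pair differences of -0.89, -1.22 and -1.34, and it was -0.77 without CharmeKO 3. Its unadjusted limma p was 0.0441. With the replicate number as a block, the adjusted p of Epha3 was 0.0327 in DESeq2 (log2 fold change -1.16), 0.7997 in limma and 0.8392 in edgeR. The DESeq2 call was lost when any pair was left out, with adjusted p of 0.576 without pair 1, 0.99999 without pair 2 and 0.368 without pair 3. Epha3 lay at 0.471 ± 0.25 RPKM, below Epha2, Epha4, Epha7 and Epha1.

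The EphA receptor with the highest level, Epha2, had 3890.0, 1369.9 and 2972 normalised reads in WT and 3424, 1514 and 2742 in CharmeKO. It followed the replicate number, to which 98.3% of its variance belonged, and its pair differences were -0.18, 0.14 and -0.12 (log2 fold change -0.05, SE 0.465). Epha5 had 25.6, 2.14 and 5.49 normalised reads in WT and 31.7, 0 and 0 in CharmeKO. Only the libraries numbered 1 held more than 5.49, and its fold change of -1.35 (SE 1.59) rested on a few reads. Epha4, Epha7 and Epha1 had fold changes of -0.95, 0.19 and -0.31. Ephb4, the receptor of ephrin-B2 in veins, led the EphB receptors with 1967, 4273 and 4631 normalised reads in WT and 2297, 3602 and 4123 in CharmeKO. Its groups overlapped, and the libraries numbered 1 lay lowest in both (log2 fold change -0.06, SE 0.389). Ephb2 had 1719, 4051 and 4179 and 1662, 3370.2 and 1199 normalised reads, lower in CharmeKO in all 3 pairs by -0.05, -0.27 and -1.80 log2 units, most of it in CharmeKO 3 (log2 fold change -0.71, SE 0.493, -0.38 without CharmeKO 3). Ephb3 and Ephb6 had fold changes of 0.18 and -0.30.

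Because the members differed so much within pairs 2 and 3, the size of the differences within pairs was set beside that of all genes. Over the 48 members and 11583 genes with a mean of at least 100 normalised reads, a floor chosen after seeing the data, a difference of at least 1 log2 unit within pair 1 was seen for 1 member (2.08%) and 1.17% of genes. Within pair 2 it was seen for 13 members (27.1%) and 6.21% of genes, and within pair 3 for 20 members (41.7%) and 10.3% of genes. Without that floor the shares were 5.08%, 30.5% and 42.4% of the 59 members and 5.86%, 12.9% and 18.4% of all tested genes. The share of members was the larger in pairs 2 and 3. Nrp2, Sema3a, Ntn4 and Robo2 were lower by more than 3 log2 units in CharmeKO 3 than in WT 3, and Sema6d, Slit3 and Epha7 had the highest pair 3 differences of the tested members, 2.31, 1.96 and 1.63. These shares describe the libraries and were not tested, since the members share them.

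**Figure D5:**
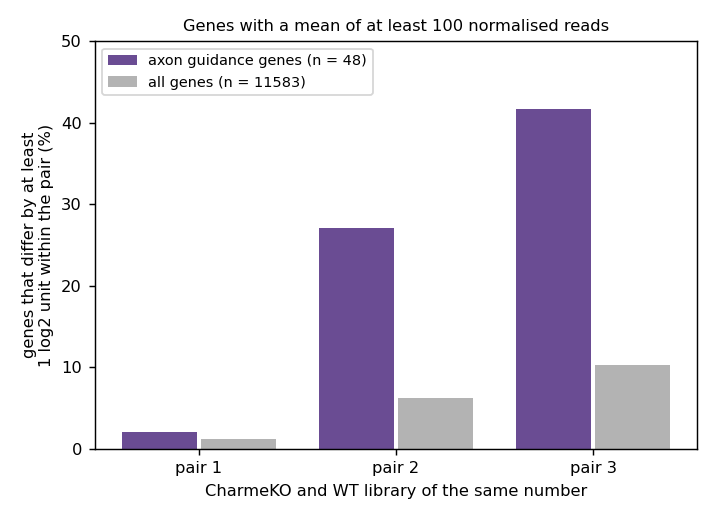
Share of genes (%) whose CharmeKO and WT library of the same number differ by at least 1 log2 unit, for 48 guidance genes (purple) and 11583 genes (grey) with a mean of at least 100 normalised reads. The shares are close in pair 1 (2.08% and 1.17%) and apart in pair 2 (27.1% and 6.21%) and pair 3 (41.7% and 10.3%).

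The other genes of the pathway were then examined as 3 lists, of which 0 genes passed the adjusted threshold. Of 27 co-receptors, alternative ligands and shedding proteases of guidance, 25 were in the table (not *Dcc* or *Ntng1*) and 24 were tested, with 18 lower (75.0%, against 49.6% of all tested genes) and 6 higher in CharmeKO and a median log2 fold change of -0.28. In all 3 pairs 8 were lower (33.3%, against 14.0% of all) and 1 was higher (4.17%, against 16.4%), which was *Draxin*. *Neo1*, the netrin receptor related to Dcc, had 7688, 8231 and 8439 and 7789, 6247 and 8514 normalised reads in WT and CharmeKO. *Rtn4*, which encodes Nogo and had the highest level of the list (106 RPKM), had a fold change of -0.30 (SE 0.372). The lowest p-values belonged to *Bmpr1b* (-1.02), *Flrt1* (-1.15), the netrin antagonist *Draxin* (1.79) and the plexin domain protein *Plxdc2* (-1.06). The values of *Draxin* were 5.91, 27.8 and 20.9 normalised reads in WT and 9.61, 213 and 78.3 in CharmeKO, which overlapped.

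All 61 genes of the cytoplasmic machinery that guidance receptors use were tested, and 51 were lower (83.6%, against 49.6% of all tested genes) and 10 higher in CharmeKO. The differences were small, with a median of -0.13. In all 3 pairs 21 genes were lower (34.4%, against 14.0% of all) and 3 higher (4.92%, against 16.4%). *Farp2*, an exchange factor for Rac that class 3 semaphorin receptors use, had 731, 801 and 924 normalised reads in WT and 413, 618 and 573 in CharmeKO. Its groups did not overlap (log2 fold change -0.63, SE 0.229), as was so for 3 genes of the list (4.92%, against 4.11% of all), the others being *Fyn* and *Arhgef11*, all lower in CharmeKO. *Farp2* was the 1 gene of the list at an unadjusted limma p under 0.05 (1.64%, against 0.897% of all). The kinase *Fyn* (-0.52), *Sipa1l1* (-0.46) and *Dpysl3* (-0.62), a collapsin response mediator, followed by p-value and were lower in CharmeKO in all 3 pairs. *Cfl1*, the actin-severing cofilin, had the highest level (259 RPKM) and a fold change of -0.03.

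The last list held the VEGF ligands and receptors that share the neuropilins, 4 lower and 4 higher in CharmeKO. *Vegfc*, a growth factor of lymphatic vessels, had 1106, 1061 and 994 normalised reads in WT and 1437, 1878 and 1478 in CharmeKO. Each CharmeKO library lay above all WT libraries (log2 fold change 0.59, SE 0.174), and the unadjusted limma p was 0.0126. *Vegfc* was the 1 gene of the 8 without overlap (12.5%, against 4.11% of all tested genes, and 2.14% without overlap and higher). It was also the 1 gene at an unadjusted limma p under 0.05 (12.5%, against 0.897% of all). *Vegfd*, the ligand with the highest level (252 RPKM), had 9590.0, 37674 and 6501 and 11878, 36760.0 and 45635 normalised reads with overlapping groups (log2 fold change 1.03, SE 0.780), and its receptor *Flt4* had 724, 151 and 1769 and 656, 167 and 159 (log2 fold change -1.15, SE 0.982). *Kdr*, an endothelial receptor, was scarce, with 56.1, 79.0 and 62.6 and 61.5, 31.5 and 24.4 (log2 fold change -0.83, SE 0.475).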

How the data were processed

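The deposited values of the 6 libraries are a normalised read signal made by the authors: reads aligned with STAR (version not given in the sources used here), counted per gene on the reverse strand on Ensembl release 87 with the *Charme* locus added, filtered for low counts and divided by DESeq2 size factors. Dividing by the value of 1 read in each library gave back the reads (100% of 116676 values whole within 0.001). STAR drops reads that overlap several genes of a strand. The sources name several genome builds, so coordinates and exon lengths were taken by gene ID from GENCODE M21 (GRCm38).

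The main test was limma 3.58.1 (R 4.3.3) on log2(value + 1) with a trend of the variance in the mean, fitted by genotype alone to the 15948 genes that had 10 or more reads in 2 or more libraries. It was two-sided, with Benjamini-Hochberg adjustment and a threshold of 0.05. Fold changes are on that scale, which understates genes with few reads. Alternatives included edgeR 4.0.16 and DESeq2 1.42.0 on the recovered reads. The scripts were tested on simulated data. Depth limits precision to counting error of reads without molecular identifiers.

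Equal replicate numbers were taken to pair the libraries, because deviations of same-numbered libraries correlated across all tested genes with r = 0.762, 0.514 and 0.217, above the minimum of 0.1 set for pairing. The unlike-numbered WT 2 and CharmeKO 3 passed that minimum too, with r = 0.222. The minimum therefore cannot tell the pair numbered 3 from an unlike pairing, and that pair rests on its label. The labels do not say what libraries of equal number share.

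The members and lists were chosen with earlier results of these data known. Values in every library are given for the 12 members with the highest RPKM, the leading member of each family, the 10 with the lowest limma p, those without overlap between groups, and those with a fold change of at least 1 and one direction in 3 pairs.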

Additional observations from a re-analysis of the deposited data

How the results depend on the processing

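Past the adjusted threshold there were 0 guidance genes as reported, 1 (Epha3) under the replicate block in DESeq2, and 0 under the other 16 alternatives, among them the 6 that left out a library. The 2 genes at an unadjusted p under 0.05 became 1 with plain library totals and 5 with the replicate block in limma or in DESeq2, with 0 to 4 when a library was left out. The 6 genes with a log2 fold change of at least 1 became 3 with a pseudocount of 5, 3 with edgeR and 3 with DESeq2, and 5 to 10 when a library was left out. The share of all tested genes is not given beside most of these counts. A change of the members therefore cannot be told apart from a change of all genes. The cause was not tested. The replicate block changed no other call of a member at the adjusted threshold. Among the lists, DESeq2 with the block put Myh11 and Actg2 past that threshold (adjusted p of 0.000603 and 8.51e-07), both lower in CharmeKO. They are 2 of the 14 smooth muscle and pericyte markers, where 0.401% of all tested genes passed. Limma called 0.0% of all tested genes with the block and without it, and DESeq2 without the block 0.0502%. The parts of the tool and of the block in these calls were not tested. The median fold change of the members stayed below 0 under all 17 alternatives, within -0.27 to -0.08 when a library was left out.

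Of the 25 members named by rule, 12 kept their sign under every alternative. Plxnb2 had a log2 fold change of -0.0024 with edgeR, -0.010 with DESeq2 and -0.00099 with DESeq2 and the block, and Efna5 of 0.037 with edgeR and 0.028 with DESeq2. When a library was left out, the fold change ran from -0.57 to 0.44 for Efna5, -0.30 to 0.16 for Efnb1, -0.33 to 0.61 for Efnb2, -0.49 to 0.29 for Epha2, -0.46 to 0.19 for Ephb4, -2.26 to 0.39 for Ntn4, -0.094 to 0.15 for Plxnb2, -0.26 to 0.15 for Robo1, -1.55 to 0.042 for Sema3d, -0.95 to 0.038 for Sema3e, -0.73 to 0.28 for Sema3f, -0.11 to 0.64 for Sema4c and -0.42 to 0.70 for Unc5b.

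In the limma fit by genotype alone, with 3 libraries a group, the median SE over the members was 0.590. Differences up to -1.69 (Sema3a) missed the adjusted threshold there. That error includes the spread between replicate numbers. With the replicate number as a block, limma put 0 members past the threshold too (0.0% of all tested genes).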
